A study of Mus musculus with 6 samples.

Results

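The YBX1 peaks of lowest tag pileup were studied here: 844 of the 12508 deposited peaks, chosen by their pileup, under 80 tags over the summit, and by their place on chromosomes 1 to 19, X or Y. YBX1 chromatin immunoprecipitation and sequencing had been done in untreated BaF3 cells, a mouse line derived from pro-B cells, which carried the activated kinase mutant JAK2 V617F and grew in RPMI1640 with serum and pyruvate. There were 3 YBX1 immunoprecipitates and 3 inputs, numbered 1 to 3, and the authors called peaks per replicate, with the like-numbered input as background. All 6 libraries came from cells with the mutant kinase, the labels name neither a control antibody nor cells lacking YBX1, and the input was the only background. Nothing in the labels tells separate cultures from repeat libraries, so the spread between them may be technical.

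The peaks came as 3 lists. The low-pileup peaks numbered 304 of 7016 peaks on these chromosomes in list 1 (4.33%), 285 of 2615 in list 2 (10.9%) and 255 of 2814 in list 3 (9.06%). Another 2, 6 and 3 peaks of low pileup lay on unplaced scaffolds and were not described. Tags kept after duplicate removal ranged from 67.0 M to 69.7 M in the YBX1 libraries and from 67.0 M to 87.6 M in the inputs. Merged where they overlapped by at least 1 bp, the 844 peaks made 713 regions.

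YBX1 is a Y-box protein: its cold shock domain binds single-stranded DNA and RNA, and it takes part in transcription, splicing, mRNA packaging and translation. The Y-box, the promoter element that gave the family its name, holds the letters CCAAT, read as ATTGG on the other strand. Other factors, above all NF-Y, also bind CCAAT boxes. In an immunoprecipitation, DNA bound by the protein is enriched over the input, which shows how many reads a stretch of genome gives without enrichment. Sequence that occurs in more copies in the cells than in the reference gives high input and high pileup together.

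Of the low-pileup peaks, 4 (0.474%) overlapped the promoter window of a RefSeq transcript, the 250 bases before its start and the 50 after. Of all 12445 peaks on the chromosomes, 11 (0.0884%) did. The bases shared by peak and window are printed because they are the member sequences that lie closest to a transcript start and could be read letter by letter. They come from RefSeq's GRCm38.p6 and run 5′ to 3′ on the gene's strand, with any CCAAT or ATTGG in capitals. The windows were searched for both spellings, which do not overlap, and 37.4% of all 32851 windows of 300 bases hold at least 1 of them. In the 250 bases before the start the share was 33.8%. Bases of a peak outside its window were not read, and the bases counted below as covered by a peak are those inside the window.

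4931408C20Rik, chr1:26687461-26687630, minus strand, all 170 bases before the start that the peak of list 3 covers: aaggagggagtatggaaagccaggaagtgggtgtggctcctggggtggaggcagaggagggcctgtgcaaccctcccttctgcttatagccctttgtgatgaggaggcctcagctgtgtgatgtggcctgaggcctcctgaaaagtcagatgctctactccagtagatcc
Gm40988, chr13:66695095-66695157, plus strand, all 63 bases before the start that the peak of list 1 covers: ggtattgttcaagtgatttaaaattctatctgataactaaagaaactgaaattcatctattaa
Gm32110, chr7:38962262-38962291, plus strand, 30 of the 233 bases that the peak of list 3 covers: tacacaggtgaaCCAATcagaaaaaatggt
Gm33382, chr7:39317494-39317523, plus strand, 30 of the 233 bases that another peak of list 3 covers: tacacaggtgaaCCAATcagaaaaaatggt

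The stretches before 4931408C20Rik, a protein-coding gene, and before Gm40988, a long noncoding RNA gene, hold neither spelling. They differ in base composition, with 57.1% G or C in the first and 23.8% in the second. The summit of the 4931408C20Rik peak lay 7 bp from the annotated start, with a pileup of 75.0, a fold over local input of 1.90 and local input 9.65 times the genome-wide level. The summit of the Gm40988 peak lay 306 bp before its start, with a pileup of 29.0 and a fold of 3.07. This summit lies outside the window and the printed stretch, and that part of the peak was not searched for either spelling. The long noncoding RNA genes Gm32110 and Gm33382 lie 355 kb apart on chromosome 7 and each hold CCAAT once in the covered stretch. Their stretches were identical at 233 of 233 bases and lie inside the protein-coding genes Gm6833 and Gm29258. Both peaks had a pileup of 33.6, with folds of 3.46 and 3.15, and both summits lay 154 bp before the start. All 4 of these peaks were found in 1 list only. No low-pileup peak overlapped any of 1005 RefSeq miRNA hairpins.

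The pileup chose these peaks, so the pileup itself and the fold, q and local input that go with it are given as a description with no test. The fold is the pileup plus 1 over the local input level plus 1, both in scaled tags. The low-pileup peaks ran from a pileup of 16, 17.0 and 16.3 in lists 1 to 3 up to the limit, with medians of 50, 48.0 and 52.9. The other peaks had medians of 214, 205 and 190. Fold was higher at low pileup, with medians of 2.56, 2.72 and 2.60 against 1.76, 1.69 and 1.76 for the other peaks. The lowest folds called also differed, at 1.63, 1.65 and 1.66 against 1.29, 1.29 and 1.32. The medians thus compare sets of peaks that begin at unlike folds, and stronger enrichment is not read from them. A fold of 5 or more was reached by 13, 21 and 21 low-pileup peaks and by 3, 2 and 1 of the others. The median width was 236, 215 and 245 bp.

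The working name for these peaks placed them outside overrepresented sequence, and the input went against that name for many of them. The local input was divided by the genome-wide level, the value expected if the kept tags were spread evenly, which was 4.04, 4.12 and 4.04 tags. The median over the low-pileup peaks was 4.35, 4.0 and 4.70 times that level, and the highest was 11.7, 11.1 and 11.6 times. The lowest was 1.00 times in each list, a floor of this measure. A value of 1.00 may thus stand for less input than the genome-wide level. In list 1, 172 of 304 (56.6%) lay below 5 times the level, in list 2 193 of 285 (67.7%) and in list 3 140 of 255 (54.9%). Only 42, 53 and 37 lay below 1.5 times. The other peaks had medians of 28.9, 28.5 and 26.7 times. Local input was solved from pileup and fold, so the limit on pileup also bounds it, and lower input than the rest is no separate result. Of the low-pileup peaks, 43.4%, 32.3% and 45.1% still had at least 5 times the level. They are therefore called low-pileup peaks throughout.

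**Figure D1:**
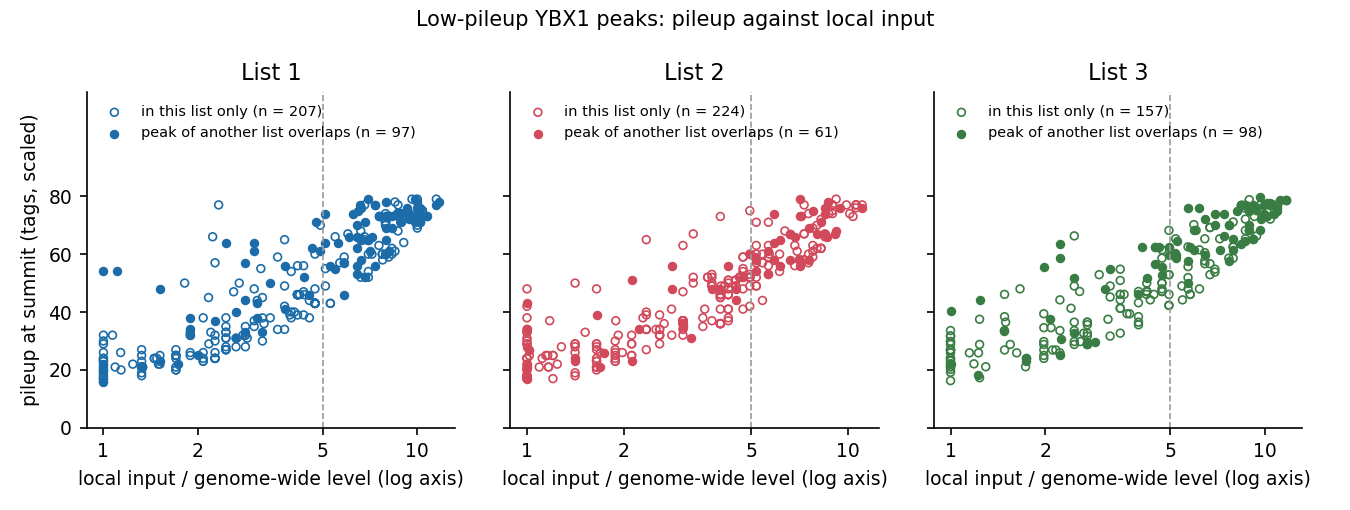
Each point is a low-pileup peak, in 1 panel per list, with the local input divided by the genome-wide level on the horizontal log axis and the pileup at the summit in scaled tags on the vertical axis. Filled points were overlapped by a peak of another list and open points were not, and the dashed line marks 5 times the level. Peaks of higher pileup had higher input, and 97, 61 and 98 of them were filled in lists 1 to 3.

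No step in the values marked the limit of 80. The 5 peaks just below it had pileups of 79.0 in list 1, 77.0 to 79.0 in list 2 and 78.8 to 79.8 in list 3, with folds of 1.66 to 2.73 over the lists. The 5 just above had 80 to 81, 80 to 81 and 80.7, with folds of 1.62 to 4.13.

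Recurrence asked whether a peak chosen in 1 list was also called in another, which the rule did not use. Of the low-pileup peaks, 31.9% in list 1, 21.4% in list 2 and 38.4% in list 3 were overlapped by a peak of any pileup in another list. Their 95% Wilson intervals, which cover counting error only, were 26.9 to 37.3%, 17.0 to 26.5% and 32.7 to 44.5%. Over all peaks on the chromosomes the shares were 42.3%, 80.8% and 81.7%, and over the peaks of higher pileup 42.8%, 88.1% and 86.0%. The mean was 30.6% ± 8.59 (SD, n = 3 lists) at low pileup and 72.3% ± 25.6 for the others. The low-pileup share was the lower in 3 of 3 lists, by 41.7 percentage points on average with an SD of 28.4. With 3 lists an exact sign-flip permutation test cannot go below p = 0.25, two-sided, and 0.25 was its value here and for each of the 5 comparisons of position below (adjusted p = 0.25 over the 6). With 1 list left out, and so 1 other list in which a peak could be found, the share was 16.1% without list 1, 28.7% without list 2 and 17.5% without list 3.

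Among the low-pileup peaks, recurrence was higher at the upper pileups. From 65 to 80 tags, 50%, 42.3% and 63.4% were found in another list. Below 30 tags the shares were 10.1%, 14.7% and 18.4%. Input moved in the same direction: at 5 or more times the genome-wide level 48.5%, 37.0% and 57.4% recurred, and below it 19.2%, 14% and 22.9%. The part of input or depth in recurrence was not tested.

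**Figure D2:**
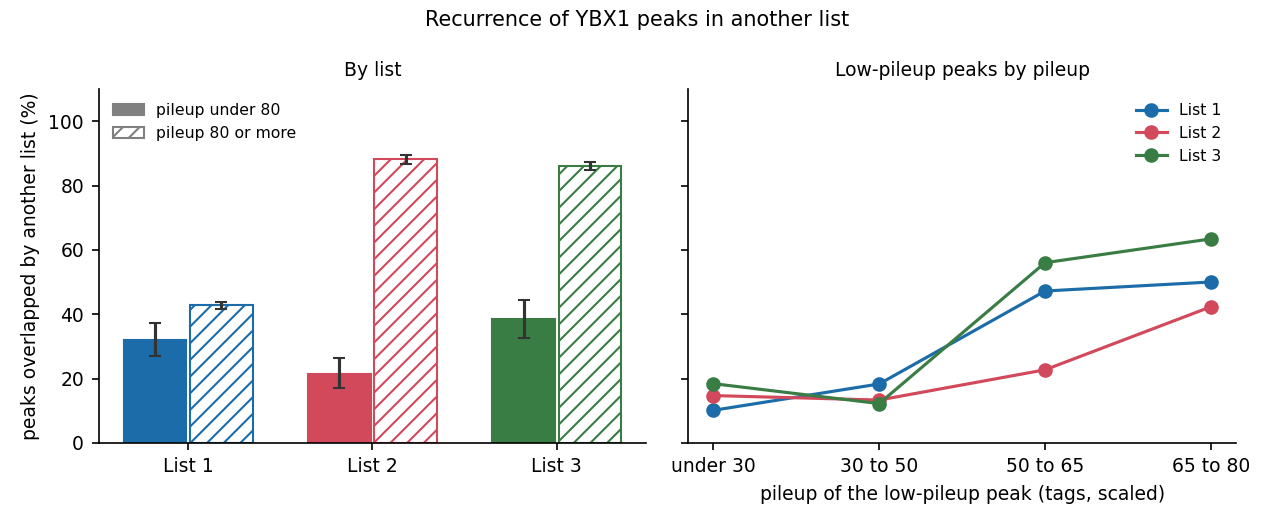
On the left, bars give the percentage of peaks overlapped by a peak of another list, with 95% Wilson intervals, for pileups under 80 (solid) and of 80 or more (hatched) in each list. On the right, points give the same percentage for the low-pileup peaks in 4 ranges of pileup. Solid bars are lower than hatched bars in each list, and the points run from 10.1 to 18.4% below 30 tags to 42.3 to 63.4% from 65 to 80.

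Of the 713 merged regions, 605 had low-pileup peaks of 1 list, 85 of 2 lists and 23 of all 3, so that 108 (15.1%) were shared. Lists 1 and 3 alone shared 47, lists 1 and 2 alone 23, and lists 2 and 3 alone 15. Another 17 regions of 1 list were overlapped by a peak of higher pileup in another list, and these 25 higher peaks had pileups of 80 to 118. The other 588 regions (82.5%) were found in no other list. Leaving out a list in turn left 38 shared regions without list 1, 70 without list 2 and 46 without list 3. Where low-pileup peaks of 2 lists overlapped, their summits were close: 88 of 154 pairs (57.1%) lay within 10 bp, with a median distance of 8 bp and a largest of 306 bp.

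Of the 20 shared regions whose lowest fold was highest, 12 lay outside protein-coding genes. At chr8:121245860-121246040, 115 kb from the forkhead gene Foxl1, the pileup was 48.0 in list 1 and 34.0 in list 2, with folds of 6.88 and 6.84. List 3 had no peak there. At chr3:39702988-39703197, 691 kb from Fat4, which encodes an atypical cadherin, the pileups were 64.0 and 43.0 in lists 1 and 2, with folds of 5.94 and 8.59. These 2 regions were alike in being absent from list 3 and in having input of at most 2.46 times the genome-wide level.

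The highest single folds were in the same pair of lists. At chr5:28099140-28099510, inside the long noncoding RNA gene Gm35223 and 20.7 kb from Insig1, a regulator of sterol synthesis in the endoplasmic reticulum, list 1 had a pileup of 54.0 and a fold of 10.9. List 2 had 28.0 and 5.66. At chr1:123303666-123304012, 28.3 kb from Dpp10, which encodes an auxiliary subunit of voltage-gated potassium channels, list 1 had 54.0 and 10.1, and list 2 had 27.0 and 5.40. Local input at both was between 1.00 and 1.10 times the genome-wide level in both lists. The pileup of list 1 was thus about double that of list 2 at either site. Input values at or near 1.00 lie at the floor of this measure, so they do not show equal input. Near Gm2663, at chr6:40992695-40992876, lists 1 and 2 had pileups of 57.0 and 51.0 and folds of 4.65 and 5.35.

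Shared regions inside protein-coding genes were fewer, 23 of 108 (21.3%) against 220 of 605 regions of 1 list (36.4%). Bin2, which encodes a membrane-bending protein of blood cells, held one at chr15:100647189-100647485, with pileups of 22 in list 1 and 33.6 in list 3 and folds of 4.56 and 4.95. Fam135a held one at chr1:24088686-24089719, with pileups of 24.0 and 40.4 in lists 2 and 3 and folds of 3.67 and 8.20, the highest fold among the low-pileup peaks of list 3. Diaph3, a formin gene, had pileups of 23.0 and 22.1 in lists 2 and 3, with folds of 3.52 and 4.58. Low input went with these values, at 1.00 to 1.48 times the genome-wide level.

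Arnt encodes the partner of the hypoxia-inducible factors and of the aryl hydrocarbon receptor. At chr3:95472224-95472641 inside it the pileups were 23.0 and 22 in lists 1 and 2, with folds of 3.37 and 4.49. The region inside D5Ertd579e and Gm32584, which overlap each other, had pileups of 38.0 and 39.0 and folds of 4.51 and 5.14 in lists 1 and 2. Gm3411 had 71.0 and 62.5 in lists 1 and 3, with folds of 3.54 and 3.63. The vomeronasal receptor gene Vmn2r44 had 21.0 and 18.3 in lists 2 and 3, with folds of 4.30 and 3.23. Within each of these genes the pileups of the lists lay close to each other, and all were under 80 by the rule.

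The rest of the 20 shared regions of highest lowest fold lay outside protein-coding genes, apart from Fam91a1. Their nearest genes included Ahctf1, which encodes a nucleoporin, at 35.7 kb, Ptchd4 at 597 kb, Gm7762 at 0.810 kb, Samd9l at 224 kb, Has2 at 253 kb and Ccm2l at 13.1 kb. Their folds ran from 3.09 at Has2 to 6.44 at Ahctf1.

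In the 23 regions with low-pileup peaks of all 3 lists, the lists mostly gave like pileups. The rule kept every pileup under 80, and in 20 of the 23 all pileups were over 45. The choice of peaks thus limited the ratio between lists, and no agreement is read from it. The ratio of the highest to the lowest pileup had a median of 1.10, and it was under 1.2 in 20 of the 23, all but Abcc1, Fam91a1 and Csmd3. Local input was at least 5 times the genome-wide level in every list in 11 of them, below it in every list in 5 and mixed in 7. Of these regions, 3 lay inside protein-coding genes and 15 (65.2%) over 100 kb from any end of one. None lay inside a pseudogene or within 1 kb of a gene end, which for 0 of 23 allows a share of up to 13.0%.

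The 3 genes were Fam91a1, Abcc1 and Thsd7a. Fam91a1, whose product tethers vesicles at the Golgi, had pileups of 40, 56.0 and 44.2 in lists 1 to 3 at chr15:58439853-58440457, with folds of 3.5, 4.51 and 7.53. Abcc1, which encodes a drug efflux pump, had 16, 17.0 and 46.1 at chr16:14441718-14441989, with folds of 3.37, 3.52 and 2.77. Local input there was 1.00 times the genome-wide level in lists 1 and 2 and 3.96 times in list 3, so list 3 stood apart in pileup and in input while its fold was the lowest. Thsd7a, at chr6:12522608-12522873, had 71.0, 65 and 68.2, with folds of 2.52, 2.52 and 2.77.

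Has2, the hyaluronan synthase gene, was the nearest gene to the region that came next after Fam91a1 by lowest fold, at chr15:56947650-56948093, with pileups of 50, 56.0 and 54.8 and folds of 3.45, 3.09 and 3.98. Near Adh4, an alcohol dehydrogenase gene, the pileups were 62.0, 58.0 and 64.4 with folds of 3.19, 2.64 and 2.93. Near Sp8, a zinc finger transcription factor gene, they were 61.0, 59.0 and 61.5 with folds of 2.97, 2.72 and 2.50. In these 3 regions no list stood apart, with every pileup under 80 by the rule.

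**Figure D3:**
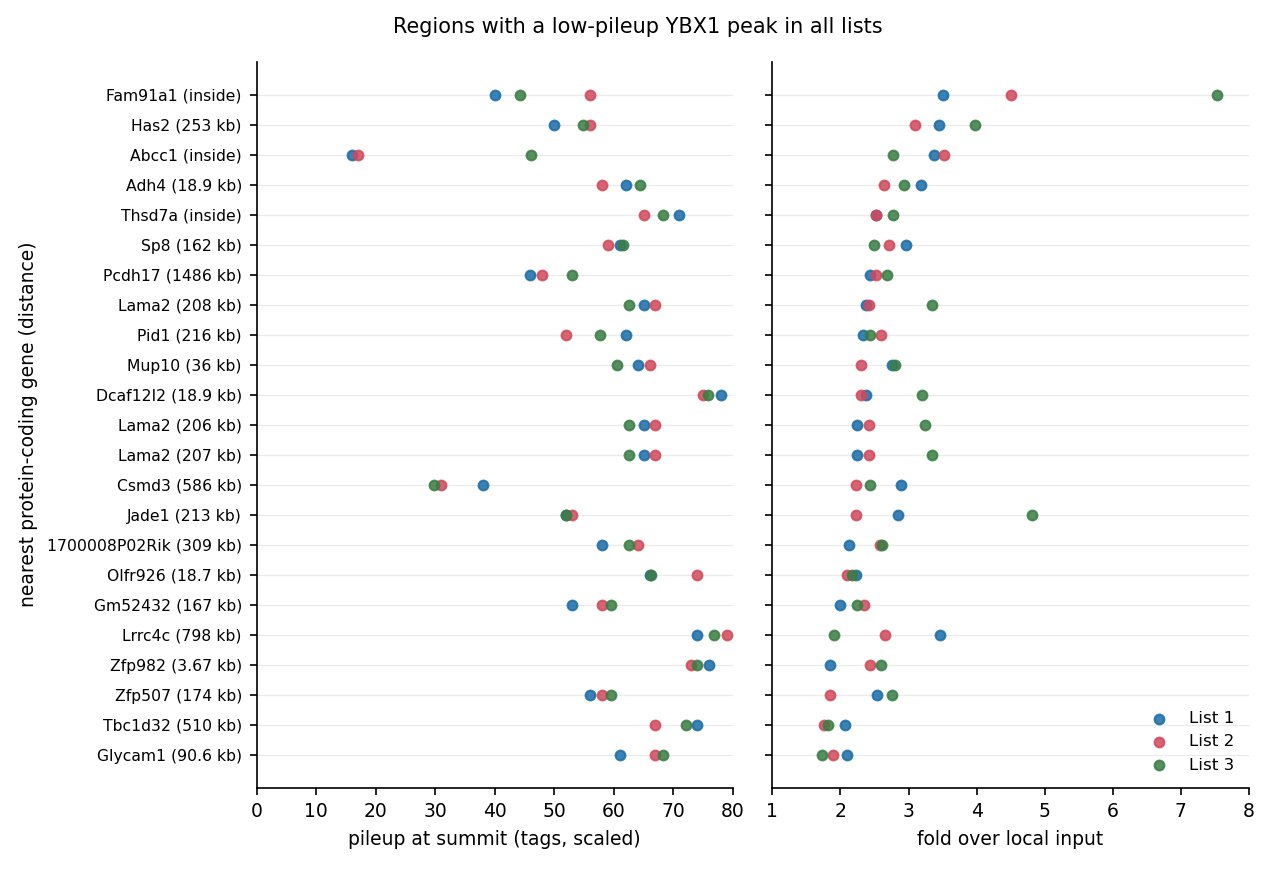
Each row is a region with low-pileup peaks of all 3 lists, named by the nearest protein-coding gene with its distance, in order of the lowest fold. Points give the pileup in scaled tags (left), under 80 by the rule, and the fold over local input (right) in each list. The highest pileup of a row is under 1.2 times the lowest in 20 rows, and the exceptions are Abcc1, where list 3 has 46.1 against 16 and 17.0, Fam91a1 and Csmd3. Folds run from 1.73 to 7.53.

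Some shared regions repeated each other's values, and each was counted singly in the counts of recurrence above. Near Lama2, a laminin gene 206 to 208 kb away on chromosome 10, 3 regions within 2.38 kb each had pileups of 65, 67.0 and 62.5 in lists 1 to 3. Another 11 regions on 10 chromosomes each had 73.0 in list 1 and 76.9 in list 3, with widths of 273 to 303 bp. Their nearest genes included Luzp2, Gm4924, Kcnj6 and Ctnnd2, and they were picked out after their values were seen. Within a single list, peaks with an identical copy elsewhere in it, by width, summit offset, pileup and fold, made up 11.5%, 5.96% and 6.27% of the low-pileup peaks, less than the 22.6%, 25.5% and 19.6% of the other peaks. The letters of these regions were not analysed here.

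Among the 5 highest folds of each list, 9 belonged to peaks found in no other list. In list 2 they were 9.57 in Ak5, an adenylate kinase gene, 8.40 in Plcb1, a phospholipase C gene, 7.62 in Orc5, a subunit of the origin recognition complex, and 7.48 in Hdac9, a histone deacetylase gene. Pileups there were 48.0, 42.0, 38.0 and 50, and local input was 1.00 to 1.41 times the genome-wide level. In list 1 they were 7.48, at 403 kb from Gm7429 on chromosome X, and 6.69 in Rbms3, an RNA-binding protein gene. In list 3 they were 6.87, at 363 kb from Elavl2, 6.73 in Nek4, a kinase gene, and 6.49 in Eri3. Each of these 9 peaks had a pileup of 31.7 to 77.0 in its own list and was called in neither of the other lists.

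Orc5 held 3 low-pileup regions within 2.28 kb, all from list 2, with folds of 6.64 to 7.62. A comparable run of 3 regions within 2.72 kb lay 6.68 kb from Tmem207, with folds of 5.96 to 6.41 and pileups of 37.5 to 58.6. A2m, which encodes a protease inhibitor of plasma, held 4 regions within 3.58 kb that all had a pileup of 60. No region of the Orc5 and A2m runs was found in another list, and 2 of the 3 near Tmem207 were overlapped by peaks of higher pileup in another list.

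Position was measured from the midpoint of a peak to the spans of RefSeq genes, a property that the rule did not use. Low-pileup peaks had a protein-coding gene's end within 1 kb in 16 of 304, 8 of 285 and 13 of 255 cases, or 5.26%, 2.81% and 5.10%. Over all peaks on the chromosomes the shares were 0.798%, 0.880% and 1.14%, and over the peaks of higher pileup 0.596%, 0.644% and 0.742%. The mean was 4.39% ± 1.37 (SD, n = 3 lists) against 0.661% ± 0.0747, higher in 3 of 3 lists. Without identical copies the means were 3.80% and 0.689%. Some of the peaks at gene ends lay in runs of like genes with a shared pileup, described below, and each was counted singly. Of the low-pileup peaks with input below 5 times the genome-wide level, 8.72%, 4.15% and 5.71% lay at gene ends. Of those above, 0.758%, 0% and 4.35% did, where 0 of 92 peaks allows a share of up to 3.26%. The 15 peaks below the limit in list 1 include a run of 8 like genes on chromosome X, at 4.16 to 4.37 times. In list 3 the shares were close, and peaks of 1 pileup at Btbd35f genes lay on both sides, at 4.20 to 4.95 and at 5.78 times. The part of input was not tested. The distance to the nearest end had medians of 45.2, 26.4 and 37.9 kb, against 66.1, 67.9 and 69.5 kb for the others. The difference in the mean exceeded the SD of either group for both measures, and the exact test was limited to the p given above.

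Shares inside genes were also higher at low pileup. Inside protein-coding genes lay 29.3%, 33.0% and 33.7% of the low-pileup peaks, against 23.2%, 23.8% and 24.0% of the others and 23.5%, 24.8% and 24.8% of all peaks. Inside pseudogenes lay 5.26%, 7.37% and 4.71%, against 1.77%, 2.06% and 2.19% of the others and 1.92%, 2.64% and 2.42% of all peaks. The means differed by 8.34 percentage points with an SD of 2.01 for protein-coding genes and by 3.77 with an SD of 1.42 for pseudogenes. For long noncoding RNA genes the shares were 5.59%, 9.47% and 6.27%, against 5.51%, 4.94% and 5.78% of the others and 5.52%, 5.43% and 5.83% of all peaks, and the mean difference of 1.70 points was smaller than its SD of 2.46. Whether peaks fell in exons, introns or untranslated regions was not analysed here.

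**Figure D4:**
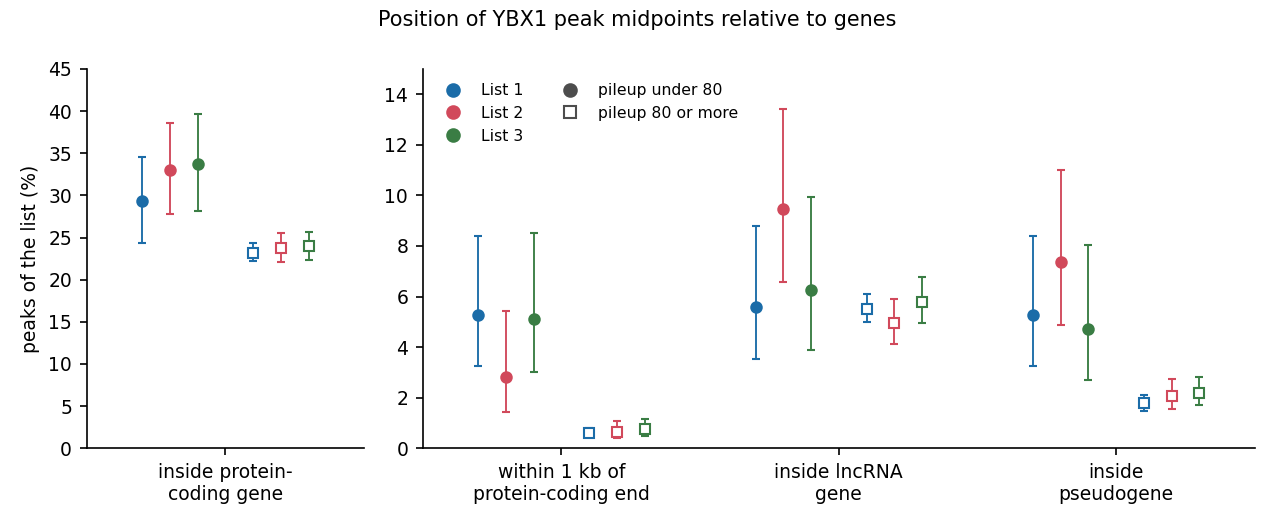
Points give the percentage of a list's peaks whose midpoint lies inside a protein-coding gene, at most 1 kb from either end of one, inside a long noncoding RNA gene or inside a pseudogene, with 95% Wilson intervals. Filled circles are pileups under 80 and open squares pileups of 80 or more. The circles are above the squares of the same list in all 4 classes, by the least in list 1 for long noncoding RNA genes, with 5.59% against 5.51%.

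The regions of 1 list and the shared ones differed in position. Of the 605 regions of 1 list, 33 (5.45%) lay within 1 kb of a gene end and 49 (8.10%) inside a pseudogene. Of the 108 shared regions, 2 (1.85%) lay at a gene end and 0 inside a pseudogene, which allows a share of up to 2.78%. The median distance to an end was 26.4 kb for the first and 72.7 kb for the second. This difference between sets of regions was not tested.

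The 37 low-pileup peaks at gene ends belonged to 34 genes, among them 7 Btbd35f genes, 3 vomeronasal receptor genes and 2 major urinary protein genes, all from families that stand in arrays of like genes. Of the 37 peaks, 5 were found in another list and 8 had an identical copy. The strand was known from the promoter windows for the genes of 30 peaks, and 12 of these lay within 1 kb of an annotated start. This count includes Vmn1r248 and Vmn1r259, genes shorter than 1 kb whose peaks lay at the far end. Highest in fold were 3 peaks at ends of Gm32584 on chromosome 5, 5.54 in list 3, 5.14 in list 2 and 4.51 in list 1. The first lay 563 bp from the start and the other two, which overlapped each other, at the far end.

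Chemosensory genes followed. The vomeronasal receptor genes Vmn1r248 and Vmn1r259 on chromosome 7 each had a peak of list 2 with a pileup of 21.0 and a fold of 3.79. Both peaks lay 818 bp from the start and 99 bp from the far end of a gene of 0.918 kb. Nxpe5 with a fold of 3.75 and Btbd35f7 on chromosome X with 3.73 came next. Vmn2r47 and Gm10302, both on chromosome 7, each had a peak of list 1 with a pileup of 24.0 and a fold of 3.64, and Gm6833 had a fold of 3.46. Local input at these peaks was 1.14 to 2.30 times the genome-wide level. The Vmn1r pair shared pileup, fold and distance, as did Vmn2r47 with Gm10302.

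On chromosome X a run of genes shared a pileup. List 1 had a peak of pileup 46.0 at 802 to 814 bp from an end of each of 8 genes: Gm14594, Gm14595, Gm14596, Gm16405, Gm16430, Gm6660, Gm7950 and Slxl1. Their folds were 2.51 to 2.64, and for 7 of the genes the annotated start lay over 17 kb away, at 17599 to 17751 bp. No other list had a peak at these places. The remaining genes with a low-pileup peak at an end were Gm6176, Gm6902, Gm7762, Gm29258, Gm10324, Btbd35f5, Btbd35f6, Btbd35f8, Btbd35f9, Btbd35f14, Btbd35f15, Rhox4b, Gm5796, Mup15, Mup22, 4931408C20Rik, 4930467E23Rik and Fcgr3, with folds of 1.71 to 3.42.

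Over whole genes, 219 of 21779 protein-coding genes (1.01%) had a low-pileup peak of any list in their span or within 1 kb of it, and 1076 (4.94%) had a peak of any pileup. Genes with a low-pileup peak had a median span of 60.5 kb, against 17.2 kb over all protein-coding genes. In 35 genes the low-pileup peaks came from at least 2 lists, and in 24 they overlapped between lists. Zfp993, a zinc finger gene with an annotated span of 479 kb on chromosome 4, held 9 regions, the most of any gene. Their pileups were 33.0 to 52.0 and their folds 1.81 to 3.93.

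Counts of families in gene arrays are to be read against the 1.01% of all protein-coding genes. Of 29 Btbd35f genes, a BTB-domain family on chromosome X, 7 (24.1%) had a low-pileup peak. In list 2 the folds were 3.73 at Btbd35f7 and 2.67 at Btbd35f8. In list 3 the pileup was 46.1 at each of the other 5, with folds of 1.93 to 2.62. Whether these 5 stand for separate sites was not tested. Of 122 Vmn2r genes 5 (4.10%) had one, with folds of up to 4.96 at Vmn2r30, 4.30 at Vmn2r44, 3.64 at Vmn2r47 and 2.56 at Vmn2r114. Of 22 major urinary protein genes 2 (9.09%) had one, Mup15 and Mup22. Near the share of all genes were the Vmn1r genes with 2 of 228 (0.877%) and the cytochrome P450 genes with 1 of 99 (1.01%, Cyp2c39). The Zfp genes, with 5 of 397 (1.26%), were also near it, among them Zfp993, Zfp980, Zfp978 and Zfp600. None of 1109 olfactory receptor genes, 40 Scgb, 28 Defa, 11 Skint or 10 Speer genes had one.

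In the pathways that the study's title names, the counts of genes with a low-pileup peak are to be read against the 1.01% of all protein-coding genes. Of 50 genes of the MAPK, ERK and MNK pathway, which carries growth signals from RAS to translation, 1 (2.00%) had such a peak: Sos1, the exchange factor that activates RAS, with a pileup of 17.3 and a fold of 3.05 in list 3. Of 41 JAK-STAT components, 20 STAT5 response genes, 8 Y-box and cold shock genes, 44 cell cycle genes, 35 apoptosis regulators and 23 B lineage markers, 0 had one. Of 57 splicing factors 1 had one, Rbfox1, with a pileup of 20 and a fold of 4.16 in list 1. Its span is 1528 kb. Counts of 0 or 1 in lists of this size are near that background share, and nothing is read from them.

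Of 38 genes reported as targets of Y-box or CCAAT binding, 2 (5.26%) had a low-pileup peak, against 1.01% of all protein-coding genes. Neither peak was at a gene end. The spans of these 2 genes, Egfr and Abcc1, are 162 and 113 kb, against a median of 17.2 kb over all protein-coding genes. Nothing is read from a count of 2. Egfr, the epidermal growth factor receptor, had a pileup of 48.0 and a fold of 3.70 in list 1, at 34.1 kb from the nearest end. The Abcc1 region, with the values given above, lay 33.0 kb from the nearest end. Ybx1, Ybx2, Ybx3, Jak2, Mknk1, Mknk2, Mapk3 and Eif4e had no peak of any pileup in their spans or 1 kb around. The nearest low-pileup region was 1638 kb from Ybx1, 1760 kb from Mknk1, 3765 kb from Jak2 and 129 kb from Eif4e.

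Among the long genes expressed in brain, 8 of 46 (17.4%) had a low-pileup peak and 34 had a peak of some pileup. Over all protein-coding genes the shares were 1.01% and 4.94%. The median span of this list was 994 kb, against 17.2 kb over all protein-coding genes. Nlgn1, a synaptic adhesion gene, had a pileup of 50 and a fold of 6.11 in list 1, Dpp10 57.0 and 5.70 in list 1, Robo2, an axon guidance receptor gene, 24.0 and 4.88 in list 2, and Ctnna3, a catenin gene, 53.0 and 3.27 in list 2. Macrod2, Lrp1b and Pcdh15 had folds of 1.75 to 2.23. Only the peak in Macrod2 was found in another list, with pileups of 74.0 in list 1 and 75.0 in list 3. Over all 346 genes of these lists, families in arrays apart, 12 (3.47%) had a low-pileup peak, against 1.01% of all protein-coding genes. The brain list gave 8 of these 12, and the part of gene length was not tested. The lists were chosen with earlier results of these data known, so nothing is read from these shares.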

How the data were processed

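YBX1 binding was measured in 3 immunoprecipitates and 3 inputs, grouped and numbered by their titles. The submitters' processing notes name Trim Galore, MACS2 and the build GRCm38, with no order. Which aligner was used is not given in the sources used here. Per the file headers, MACS 2.1.1.20160309 kept 1 tag per position and strand, extended tags to 160 bp, scaled the larger library down and used a q threshold of 0.01. The pileup is a signal in scaled tags, per the file headers. The fold is the authors' ratio over local input, and the −log10 q values were deposited with each peak. The lists hold no value for regions that were not called.

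Local input was solved from the fold. Peak positions were compared by midpoint with RefSeq gene spans of GRCm38.p6 (49997 entries, of which 340 that start below 3 Mb were left out), which give no exons. Shares were compared between low-pileup and other peaks over the 3 lists by an exact two-sided sign-flip permutation test, with Python 3.11.15, pandas 2.3.3 and SciPy 1.17.1, tested on simulated data. The members and gene lists were chosen with earlier results of these data known, and 346 of 347 listed names were matched. Named were the 20 shared regions of highest lowest fold, the 10 gene-end peaks and 5 peaks per list of highest fold, up to 4 genes per list or family, the peaks at the limit and a set of fixed genes. Results for some of these genes are not reported here. Regions in all 3 lists beyond these were picked after their values were seen. Alternatives changed the pileup limit, q threshold, overlap, gene-end window, peak position, identical copies and the lists used.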

Additional observations from a re-analysis of the deposited data

How the results depend on the processing

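Of 114 recomputed values, 95 stayed within the spread of the lists, or within 1.5 times for counts, 19 moved and 0 reversed. All 33 recomputed differences between low-pileup and other peaks kept their direction. With a pileup limit of 60, the mean number of low-pileup peaks per list was 183 rather than 281, shared regions were 40, the share found in another list was 19.2%, the share at gene ends 6.18%, the share inside protein-coding genes 34.7% and the median distance to an end 26.8 kb. With a limit of 100 there were 189 shared regions. With a −log10 q of at least 5 there were 152 peaks per list, 389 regions and 54 shared regions, and 0.558% of the other peaks lay at gene ends. Without identical copies 22.9% of the other peaks lay inside protein-coding genes. Within 5 kb of a gene end lay 13.4% of the low-pileup and 4.38% of the other peaks. Leaving out each list in turn gave 38 to 70 shared regions and 16.1 to 28.7% of low-pileup peaks found in another list, and the cause of the differences between these values was not tested. No paired analysis was possible of immunoprecipitates against inputs because each immunoprecipitate and the input of its number had been combined by the authors into 1 peak list; the tests given compared low-pileup and other peaks within each list. With 3 lists no test here could pass 0.05, and peaks of lowest pileup rest on few tags.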

Other observations

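The low-pileup regions were spread unevenly over the chromosomes. Chromosome X held 89 of the 713 regions (12.5%), against 7.73% of the regions made by the other peaks. Chromosome 7 held 71 (9.96% against 6.47%), chromosome 4 held 62 (8.70% against 5.21%) and chromosome 14 held 58 (8.13% against 4.96%). Chromosome 18 held 9 (1.26% against 3.26%). These shares pool the 3 lists and were not tested.

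Several runs of regions lay close together, joined over gaps of up to 10 kb. Near Obox2, an oocyte homeobox gene on chromosome 7, there were 3 runs of 3 or 4 regions, at 35.8, 202 and 247 kb from the gene. Their pileups were 67.0 to 76.9, their folds 1.76 to 2.17 and their spans 11.5 to 11.7 kb. The split into 3 rests on the gap limit, since list 1 had more low-pileup peaks between them. Examples are peaks starting at chr7:15164787 and chr7:15175892, each with a pileup of 75.0. Near Apba2 on the same chromosome 2 runs held 4 and 3 regions, with folds of 1.88 to 4.67 and pileups of 35.0 to 75.0. On chromosome 13, runs of 3 regions near Gm17353 and Gm10324 had the same pileups, 46.0 to 49.0, and the same length, 3.17 kb. A run of 3 regions that all had a pileup of 70 lay in or near Fcgr3, an Fc receptor gene, with 1 of them inside it. None of the regions in these runs was shared between lists. They were picked after their values were seen.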
